A study of Mus musculus with 4 samples.

Results

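Windows of raised input were the rows of the deposited methylation table whose reads, summed over the 2 input libraries, came to at least 60, leaving out the block at the small RNA gene Rn4.5s on chromosome 6. There were 4563 of them (the members) among 1048575 listed windows of 100 bp, 0.435% of the list. A further 603 windows passed the threshold inside the block that was left out, and 1043395 other windows lay under it. The members were thus chosen by their input reads, so every level of input and every ratio of methylated DNA over input below is a description and not a test.

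The study concerns PLZF, the transcription factor that directs the development of natural killer T (NKT) cells, and how its acetylation bears on that process. NKT cells that bound CD1 tetramers were sorted from the thymus of C57BL/6 mice, either wild type (WT) or of a kind named PLZFon, whose allele the labels do not describe and for which no age is given. MeDIP-seq sequences the fraction of sheared DNA that an antibody to 5-methylcytosine captures, and the sheared DNA itself, taken before capture, serves as input. Each of the 4 groups had 1 library. MeDIP gave 15143451 reads in WT and 10635946 in PLZFon, and input gave 60689327 and 50365402. Groups were taken from the library titles, and the antibody label does not match them, since it gives no antibody for either PLZFon library and gives the antibody for both WT libraries, the input included. There were no replicates, so each difference compares a pair of libraries and cannot be told apart from a difference between single preparations. Intervals are exact (Clopper-Pearson) 95% intervals of a binomial share and cover counting error only. These are DNA libraries, which hold no expression that could check the sort against NKT cell markers.

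Most of the mammalian genome is present as a pair of copies per cell, but some genes stand in arrays of near-identical copies, and parts of other sequences, such as the mitochondrial genome or satellite DNA, are scattered through the chromosomes. Input reads follow how much of a sequence the cells hold and how well its reads can be placed, whatever its methylation. Where many genomic copies are represented by few copies in a reference, input and MeDIP reads both pile up there, and MeDIP reads alone no longer show how methylated the sequence is. The ratio of MeDIP to input, each scaled to library depth, allows for this.

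Some members lie over annotated promoters, which show the kind of sequence involved. Of 32851 promoters in the RefSeq set (GRCm38.p6, 250 bases before to 50 after the start), 31 of 30 genes overlapped a member. CpG sites (the letters CG, counted once as they read the same on both strands) were present in 94.6% of all promoters with a median of 7, and the 31 promoters held from 0 to 23, with a median of 5. The first set below shows 3 zinc finger promoters of chromosome 4, Zfp600 (chr4:146156577-146156876, plus strand), Rex2 (chr4:147021600-147021899, plus strand) and Zfp979 (chr4:147642459-147642758, minus strand), because they are nearly the same sequence at sites up to more than a megabase apart. The CpG sites are in capitals.
Zfp600: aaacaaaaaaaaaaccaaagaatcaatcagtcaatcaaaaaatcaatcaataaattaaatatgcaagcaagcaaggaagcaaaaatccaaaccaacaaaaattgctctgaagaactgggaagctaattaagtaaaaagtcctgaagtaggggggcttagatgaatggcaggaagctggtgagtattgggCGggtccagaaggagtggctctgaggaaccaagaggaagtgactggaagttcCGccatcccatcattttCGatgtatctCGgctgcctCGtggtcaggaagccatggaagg
Rex2: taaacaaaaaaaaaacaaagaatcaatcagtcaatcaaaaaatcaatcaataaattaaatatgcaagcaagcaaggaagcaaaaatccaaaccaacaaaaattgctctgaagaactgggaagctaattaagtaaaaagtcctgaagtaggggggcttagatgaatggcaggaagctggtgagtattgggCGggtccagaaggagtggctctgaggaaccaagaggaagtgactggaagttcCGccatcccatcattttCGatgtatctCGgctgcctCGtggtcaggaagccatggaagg
Zfp979: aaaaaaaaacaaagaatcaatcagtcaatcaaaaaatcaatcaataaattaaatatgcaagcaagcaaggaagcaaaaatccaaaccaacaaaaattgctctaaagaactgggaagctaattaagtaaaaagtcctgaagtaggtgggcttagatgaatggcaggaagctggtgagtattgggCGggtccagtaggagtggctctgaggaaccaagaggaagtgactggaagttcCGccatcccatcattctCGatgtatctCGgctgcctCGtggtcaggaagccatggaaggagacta
Zfp600 and Rex2 differed by 2 edits over 300 bases (99.3% identical), and Zfp979 by 5 edits from Zfp600 and 4 from Rex2 over the 294 bases that they share when shifted by 6. Each of the 3 promoters held 5 CpG sites.

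The second set shows promoters of the Sp100 gene family region of chromosome 1, A530032D15Rik (chr1:85109804-85110103, minus strand), C130026I21Rik (chr1:85270517-85270816, minus strand) and Sp140 (chr1:85600453-85600752, plus strand), where the largest group of members lay.
A530032D15Rik: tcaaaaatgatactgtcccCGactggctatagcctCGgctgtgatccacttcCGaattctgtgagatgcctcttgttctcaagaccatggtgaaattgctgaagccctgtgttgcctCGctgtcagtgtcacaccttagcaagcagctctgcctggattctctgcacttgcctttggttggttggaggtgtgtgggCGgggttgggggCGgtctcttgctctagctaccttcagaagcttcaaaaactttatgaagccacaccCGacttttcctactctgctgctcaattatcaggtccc
C130026I21Rik: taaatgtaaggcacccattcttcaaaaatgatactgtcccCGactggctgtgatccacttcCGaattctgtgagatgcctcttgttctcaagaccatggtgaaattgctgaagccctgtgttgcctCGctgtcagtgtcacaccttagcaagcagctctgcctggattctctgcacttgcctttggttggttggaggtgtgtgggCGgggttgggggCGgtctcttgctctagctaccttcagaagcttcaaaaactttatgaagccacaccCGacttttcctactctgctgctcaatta
Sp140: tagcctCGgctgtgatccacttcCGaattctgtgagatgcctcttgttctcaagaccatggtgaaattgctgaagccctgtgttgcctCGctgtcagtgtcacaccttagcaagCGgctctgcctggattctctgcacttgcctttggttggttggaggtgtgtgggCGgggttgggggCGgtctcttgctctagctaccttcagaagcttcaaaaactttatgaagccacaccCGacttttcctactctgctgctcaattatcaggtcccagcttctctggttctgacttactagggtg
A530032D15Rik and Sp140 differed by 1 edit over 271 bases (99.6%) when shifted by 29 bases, C130026I21Rik and Sp140 by 6 edits over 262 bases (97.7%), and A530032D15Rik and C130026I21Rik by 23 edits over 291 bases (92.1%). The CpG sites numbered 7, 6 and 7 in that order of listing.

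The last one is a promoter of the long noncoding RNA gene Gm40237 (chr4:118547156-118547455, plus strand), shown because a cluster of members with some of the highest input lies there and because the sequence repeats itself.
Gm40237: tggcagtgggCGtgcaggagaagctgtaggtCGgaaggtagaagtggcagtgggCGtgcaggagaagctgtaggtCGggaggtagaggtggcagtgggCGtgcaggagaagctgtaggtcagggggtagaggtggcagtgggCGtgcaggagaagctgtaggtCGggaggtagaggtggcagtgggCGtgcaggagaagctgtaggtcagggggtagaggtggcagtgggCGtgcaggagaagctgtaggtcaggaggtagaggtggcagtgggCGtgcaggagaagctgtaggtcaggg
In this sequence 97.6% of bases equalled the base 88 positions on and 96.1% the base 44 positions on. Among all 32851 promoters the best such share at a distance of 10 to 150 bases had a median of 34.6%, and 18 promoters (0.0548%) reached 80%. It held 10 CpG sites.

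Over the members a window had a median of 51 WT input reads (lowest 20, highest 577) and 43 PLZFon input reads (18 to 562), against medians of 11 and 9 in the other windows. WT MeDIP reads had a median of 17 (1 to 592) and PLZFon MeDIP reads a median of 13 (0 to 589), against 10 and 7. The input sum had a median of 94 and reached 1139, where all listed windows had a median of 20. MeDIP reads were thus higher in the members too, but by less than the input. At the threshold there was no step. The 132 members with an input sum of 60 had 2.74 times as many depth-scaled MeDIP as input reads in WT and 2.67 times in PLZFon, and the 150 windows with a sum of 59 had 2.65 and 2.66.

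The members were unevenly spread over the chromosomes of the list, which covers chromosomes 1 to 6 and chromosome 7 up to position 139972600. Chromosome 1 held 1995 members (43.7%, against 15.5% of all listed windows) and chromosome 4 held 1257 (27.5% against 15.1%). Chromosome 7 held 571 (12.5% against 12.7%), and chromosomes 5, 2, 3 and 6 held 331, 158, 145 and 106, each a smaller share than of the list. Joined across gaps of up to 1000 bp the members formed 751 runs, of which 177 were single windows, 121 were pairs and 453 were clusters of 3 or more. The clusters held 4144 members (90.8%), with a median of 6 and at most 126 members. Joined across gaps of up to 500000 bp, a distance chosen after the positions were seen, they formed 162 domains. The 16 domains of 25 or more members held 4033 of them (88.4%), and the 4 largest held 3285 (72%).

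Genes stood under 72.8% of members and 59.3% of listed windows. Pseudogenes, gene copies that have lost their function, overlapped 21.2% of members against 2.04% of listed windows, and small nucleolar RNA genes 2.06% against 0.0319%. Protein-coding genes overlapped 47.3% against 50.5%. Of the gene families fixed as lists, windows over Sp100, Csprs, Sp140 and Sp110 were mostly members (283 of 328 listed windows), as were all 10 listed windows over copies of mitochondrial genes. Windows over zinc finger genes gave 509 members of 9651, over vomeronasal receptor genes 287 of 1985, over Ugt genes 25 of 175, over Speer genes 16 of 146 and over Pramel genes 15 of 328. Some families gave none: 0 of 1020 windows over olfactory receptor genes, 0 of 983 over Cyp genes, 0 of 307 over Skint genes, 0 of 260 over Klr genes and 0 of 207 over microRNA genes. Members made up 0.435% of all listed windows, and at that share families with so few windows would hold few members or none. The members are called repeat or multi-copy windows in the working name, and no repeat annotation was used here that could check this beyond gene copies.

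The members had lower CpG factors than the other listed windows. The authors' deposited CpG factor, a score of CpG content per window, had a mean of 2.02 in the members and 2.34 in the others, and 47.4% of members had the lowest listed value of 1, against 33.5%. MeDIP over input was 1.95 (1.92 to 1.97) in WT and 2.01 (1.98 to 2.04) in PLZFon over the members, and 4.51 (4.498 to 4.512) and 4.28 (4.27 to 4.29) over the other windows. The members were also lower at each CpG factor. At a factor of 1, WT MeDIP over input was 1.40 in members and 3.77 in others, and at a factor of 4 it was 3.75 and 5.52. The other windows rose further, to 8.67 at a factor of 10 or more, whereas the members fell to 3.08 at 7 to 9 and to 1.46 (1.27 to 1.68) at 10 or more. PLZFon MeDIP over input followed the same course up to a factor of 6 and was 3.31 and 2.17 (1.90 to 2.47) in the highest classes of the members. A window needed at least 10 MeDIP reads to be listed, so low ratios could be listed only where input was high. The same minimum bears on the contrast in CpG factor, since CpG-poor windows of ordinary input may be missing from the list. Its effect on that contrast was not tested.

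**Figure D1:**
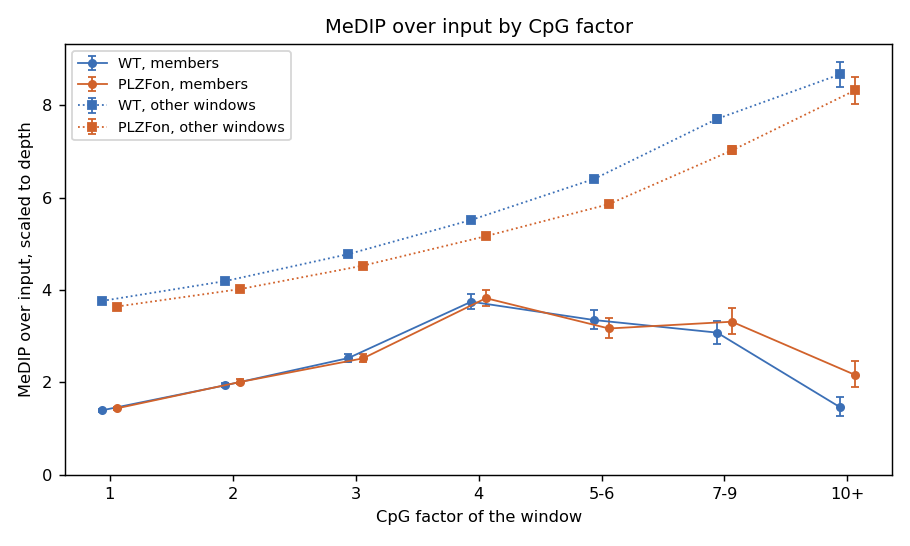
MeDIP over input, scaled to library depth, by the CpG factor of the window (horizontal axis) for members (circles, solid lines) and other windows (squares, dotted lines) in WT (blue) and PLZFon (orange), with 95% counting intervals. The members lie below the other windows in each class, and above a factor of 4 their values fall in WT to 1.46 while those of the others rise to 8.67.

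The relative methylation score that the authors deposited for each MeDIP library ranked these groups the other way. Its mean was 0.727 in WT and 0.684 in PLZFon over the members, and 0.625 and 0.570 over the other windows. It rose with the input level, from 0.692 in WT members with 60 to 79 input reads to 0.848 in those with 500 or more.

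Single members differed widely. Among the members the WT MeDIP over input had quartiles of 0.759 and 2.52 around a median of 1.34, and the PLZFon value had 0.789 and 2.57 around 1.39. In 256 members (5.61%) it was under 0.5 in both genotypes. The other windows gave 0, but their input was too low for such a value at the MeDIP reads needed for listing. That 0 is thus set by the listing and is no contrast with the members. In 68 members (1.49%) MeDIP over input was over 8 in both genotypes, against 6.22% of the others. The bounds of 0.5 and 8 were chosen after the values were seen.

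The largest domain covers the Sp100 family region of chromosome 1 (84955601 to 85864600) and held 1400 members, of which 283 lay over Sp100, Sp110 or Sp140. Sp100, Sp110 and Sp140 encode nuclear body proteins that are induced by interferon and read chromatin. In mice the region is known for a long multi-copy repeat. WT MeDIP over input was 1.55 (1.51 to 1.58) and PLZFon 1.59 (1.55 to 1.63), from window sums of 41514 WT and 30140 PLZFon MeDIP reads. The PLZFon over WT MeDIP ratio was 1.03 (1.003 to 1.06), beside 1.01 (0.987 to 1.02) for the inputs. Within the domain the genes were unlike each other in pull-down. A530032D15Rik had 0.843 in WT and 0.906 in PLZFon over 85 members, Sp140 had 1.37 and 1.42 over 184, Sp110 had 1.53 and 1.61 over 182 and Sp100 itself had 1.92 and 2.35 over 24. The pseudogene Gm15433 had 3.35 and 3.31 over 38. The order was much the same in both genotypes, and 88 clusters spanned 0.267 to 3.89 in WT and 0.302 to 3.53 in PLZFon. Over the promoters printed above, the members held 101 WT and 62 PLZFon MeDIP reads at A530032D15Rik, 35 and 36 at C130026I21Rik and 63 and 58 at Sp140. Pull-down over input was low at each, 0.783, 0.370 and 0.601 in WT and 0.734, 0.557 and 0.817 in PLZFon, and the intervals of the PLZFon over WT ratios include equality. This domain also held 163 of the 256 members with MeDIP under 0.5 of input, with a mean input sum of 190.

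Of the 10 clusters with the most members, 7 lay there. The one with the most, 126 members over Gm38510 and C130026I21Rik (85267801 to 85290400), had 4506 WT and 3347 PLZFon MeDIP reads, 12690 WT and 10591 PLZFon input reads, and a MeDIP ratio of 1.06 (0.966 to 1.16). Another over A530032D15Rik and A530040E14Rik (85096701 to 85120200, 111 members) had 0.988 (0.877 to 1.11). All 7 ratios lay between 0.980 and 1.13 with intervals that include equality.

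The Ugt1a, Mroh2a and Hjurp region of chromosome 1 (88211801 to 88309000) held 380 members and the other 3 of those 10 clusters. Over these genes lay 276 of the members, with 165 over Mroh2a, 111 over Hjurp and only 25 over Ugt1a genes. Ugt1a genes encode enzymes that attach glucuronic acid to bilirubin, hormones and drugs, and Hjurp encodes the chaperone of the centromeric histone. Its MeDIP over input was 1.98 (1.89 to 2.08) in WT and 1.99 (1.89 to 2.11) in PLZFon, and its PLZFon over WT MeDIP ratio was 1.002 (0.944 to 1.06). Mroh2a had 1.61 and 1.71 and Hjurp 2.37 and 2.30.

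The zinc finger domain of chromosome 4 (145456401 to 147775900) held 1081 members, 524 of them over Zfp genes or Rex2, and 131 clusters of 3 or more. Its genes belong to the KRAB zinc finger family, whose proteins bind DNA, many of them at transposons, and recruit silencing factors, and it also holds vomeronasal receptor pseudogenes. MeDIP over input was 2.01 (1.95 to 2.08) in WT and 1.96 (1.89 to 2.03) in PLZFon, and the MeDIP ratio was 0.967 (0.930 to 1.005). The gene with the most members, Zfp978 (283), had 2.24 and 2.16, Zfp993 had 1.66 and 1.54, Zfp992 had 2.89 and 2.61, Zfp600 had 2.65 and 2.58, Zfp979 had 2.18 and 2.58 and Rex2 had 1.63 and 1.81. Over the promoters printed above, the members had window sums of 71 WT and 38 PLZFon MeDIP reads at Zfp600, 58 and 27 at Rex2 and 66 and 49 at Zfp979. Their PLZFon over WT ratios were 0.762 (0.308 to 1.77), 0.663 (0.223 to 1.76) and 1.06 (0.462 to 2.35), and a difference was not detectable at this depth.

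Small RNA arrays formed domains of their own. On chromosome 7 (59676301 to 59902300) 424 members lay in Snhg14, the long noncoding transcript of the imprinted Prader-Willi region, over an array of 66 small nucleolar RNA genes with a median spacing of 2528 bp. The region is known for its Snord116 genes, which are expressed from the paternal chromosome. MeDIP over input was 1.32 (1.25 to 1.40) in WT and 1.42 (1.33 to 1.51) in PLZFon, the MeDIP ratio 1.13 (1.05 to 1.22) and the input ratio 1.05 (1.01 to 1.10). Members on the small RNA genes (93) and between them had similar WT values, 1.29 and 1.34, and in PLZFon they had 1.29 and 1.45. Along the array, in 9 stretches of 20000 bp with at least 10 members, the MeDIP ratio ranged from 0.905 to 1.27. It lay above 1 in 7 of them, with an interval above 1 in 1.

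On chromosome 1 (171063701 to 171345000) a domain of 93 members spans transfer RNA genes, with 4 members over such a gene. Most members lay in 3 clusters that each hold a copy of a glycine tRNA gene. The first run (171063701 to 171064100, 4 members) lay over Fcgr3. The last (171344601 to 171345000, 4 members) lay far from the others, at Nit1 and Pfdn2. The cluster at n-TGgcc12 (171066201 to 171069600) had window sums of 453 WT and 317 PLZFon MeDIP reads, that at n-TGgcc13 (171073801 to 171077200) had 479 and 335, and that at n-TGgcc14 (171081401 to 171084700) had 488 and 309. The 3 were alike in both libraries, with ratios of 0.996, 0.996 and 0.902 and intervals that include equality. Input reads in the same order were 1066, 1316 and 1139 in WT and 1060, 1211 and 1091 in PLZFon. The runs between these clusters had higher CpG factors (means of 4.12 and 4.78) and MeDIP ratios of 1.496 (0.768 to 2.92) and 1.39 (0.856 to 2.24).

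Several smaller domains lay in the neighbourhood of gene families with germline or sensory roles, mostly between the genes. A domain of 120 members on chromosome 5 (93289501 to 95766500) spans Pramel genes, of which many are expressed in germ cells. Over those genes lay 15 of its members, and the domain had WT MeDIP over input at 2.18 and PLZFon at 2.11. Around Obox4 pseudogenes, copies of an oocyte homeobox gene, 94 members lay on chromosome 7 (15129101 to 15459900), 72 of them over the pseudogenes, with 2.09 and 1.81 and a MeDIP ratio of 0.869 (0.745 to 1.01). A domain of 58 on chromosome 5 (14921701 to 15713000), 16 of them over Speer genes, a testis family, had 1.61 and 1.71. Domains of 75 members on chromosome 4 (3053101 to 3257800) and of 30 on chromosome 6 (3050301 to 3201800) span Vmn1r genes, which encode pheromone receptors, but 0 members of either lay over such a gene. Their values were 2.36 and 2.55, and 2.31 and 2.64. In both of these domains the summed MeDIP ratio lay above equality, at 1.24 (1.11 to 1.39) and 1.27 (1.13 to 1.43), and so did the input ratio, at 1.15 (1.06 to 1.25) and 1.11 (1.02 to 1.22). Of their clusters with at least 50 MeDIP reads, 1 of 4 and 1 of 3 had an interval above equality. Cluster ratios ranged from 0.877 to 1.37 with a median of 0.951, and from 0.975 to 1.36 with a median of 1.33. The mean input sums were 120 and 256, against medians of 82 and 80.

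The Sprr2a domain of chromosome 3 (92211301 to 92285600, 81 members) was the only one of the 16 whose MeDIP ratio had an interval wholly below equality. Apart from the block on chromosome 2 described below, its MeDIP over input was the highest of the 16. Over Sprr2a genes lay 19 of its members. Sprr2a genes encode small proline-rich proteins of the cornified envelope of the skin. WT MeDIP reads summed to 3247 and PLZFon reads to 1955, and MeDIP over input was 3.52 (3.20 to 3.87) and 3.25 (2.89 to 3.65). The MeDIP ratio was 0.857 (0.765 to 0.960) by library totals and 0.889 (0.793 to 0.995) with TMM factors, and the input ratio was 0.927 (0.840 to 1.02). The pseudogenes Gm5851 and Gm5850 in it had 0.686 (0.487 to 0.958) and 0.727 (0.513 to 1.02), with input ratios of 0.883 and 0.842.

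**Figure D2:**
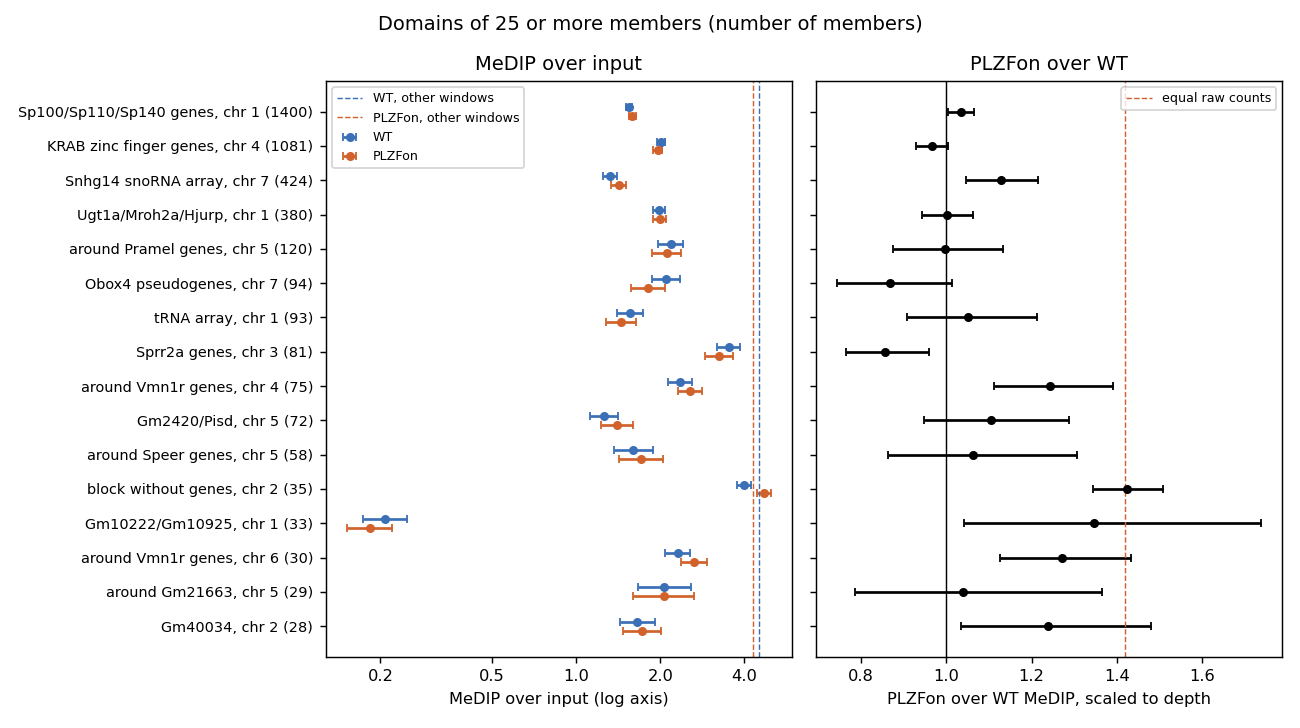
The 16 domains of 25 or more members, with the number of members in brackets. The left panel gives MeDIP over input (log axis) for WT and PLZFon beside the value of the other windows (dashed), and the right panel the PLZFon over WT MeDIP ratio, with 95% counting intervals. On the left, all 16 lie under the other windows in WT and all but the block on chromosome 2 in PLZFon, the Gm10222 and Gm10925 domain being lowest at 0.208 in WT, and on the right 7 intervals lie above equality and 1 below.

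Of the 16 domains the weakest pull-down was at a pair of pseudogenes on chromosome 1 (24611401 to 24616200), Gm10222 and Gm10925. All 33 listed windows there were members, 10 of them over the pseudogenes. Gm10925 has mt-Atp6 among its synonyms, the mitochondrial gene of an ATP synthase subunit. Mitochondrial DNA is present in many copies per cell. The inputs summed to 9954 reads in WT and 12598 in PLZFon, a mean of 683 per window, and the MeDIP libraries to 516 and 488. MeDIP over input was 0.208 (0.173 to 0.248) in WT and 0.183 (0.152 to 0.220) in PLZFon. Of the 16 domains this one had the largest input ratio, 1.53 (1.45 to 1.61), and the MeDIP ratio was 1.35 (1.04 to 1.74). Only 1 other cluster outside it had an input ratio with an interval wholly above 1.2, in Myo3a, the gene of a hair cell myosin, on chromosome 2 (22587401 to 22589200), with 1291 WT and 1696 PLZFon input reads over 13 members, a ratio of 1.58 (1.37 to 1.84), and 167 and 109 MeDIP reads (0.929, 0.552 to 1.54).

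At the other end, 7 clusters had more than 8 times as many MeDIP as input reads after scaling in both genotypes. In Washc2, a subunit gene of the WASH complex that shapes endosomal actin (chromosome 6, 116251401 to 116252000), 6 members held 1240 WT and 761 PLZFon MeDIP reads on 216 and 212 input reads, giving 23.0 and 17.0. In Uxs1, which encodes an enzyme that makes UDP-xylose (chromosome 1, 43777601 to 43779000), 14 members held 3197 and 2361 MeDIP reads and gave 16.3 and 13.8. Pfdn4, a subunit gene of the prefoldin chaperone (chromosome 2, 170504701 to 170505300), gave 14.1 and 11.5, the integrin gene Itgad (chromosome 7, 128186901 to 128188500) 12.5 and 8.59, and Golt1b, a gene of Golgi transport (chromosome 6, 142397101 to 142399900), 10.2 and 10.3. The remaining clusters lay in the Pramel neighbourhood of chromosome 5, over no annotated gene. Input sums per window averaged 62.4 to 77.1 in these clusters, under the median of 94 over the members, except for 114 in Uxs1. Strong pull-down thus stood mostly near the input threshold. Among these 7 the MeDIP ratio of Pfdn4 alone had an interval off equality, 0.786 (0.626 to 0.983).

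PLZFon and WT were compared by their MeDIP reads, which the choice of members did not use beyond the listing minimum. Over all members the MeDIP libraries summed to 143287 WT and 110275 PLZFon reads, a depth-scaled PLZFon over WT ratio of 1.10 (1.08 to 1.11), where the other windows had 0.962 (0.960 to 0.963). The input ratio was 1.06 (1.05 to 1.07) over the members and 1.01 over the others. The ratio over the members depended on the input level. Members with an input sum under 200, 4138 of the 4563, had a MeDIP ratio of 1.03 (1.01 to 1.05), with 1.03 (1.01 to 1.04) for the inputs. The 425 with 200 or more had 1.30 (1.27 to 1.34) and 1.16 (1.14 to 1.18).

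In steps of input level the MeDIP ratio was 1.01 (0.975 to 1.04) at 60 to 79 reads, 1.07 (1.02 to 1.12) at 150 to 199, 1.16 (1.10 to 1.22) at 200 to 299, 1.35 (1.25 to 1.45) at 300 to 499 and 1.41 (1.35 to 1.47) at 500 or more. WT MeDIP had 1.42 times the depth of PLZFon MeDIP, so a scaled ratio of 1.42 is what equal raw counts give. The raw PLZFon over WT ratio of MeDIP reads was 0.708 at 60 to 79 input reads, 0.947 at 300 to 499 and 0.989 at 500 or more. The raw MeDIP counts of a window lay within 10% of each other in 58 of the 83 members with 500 or more input reads (69.9%), in 27 of 59 with 300 to 499 (45.8%), and in 206 of 1565 with 60 to 79 (13.2%). The inputs had a depth ratio of 1.20. At 500 or more, without the Gm10222 and Gm10925 domain, their scaled ratio was 1.20 (1.15 to 1.25), with a raw ratio of 0.996. What brings raw counts of libraries of unequal depth together at these windows was not tested.

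**Figure D3:**
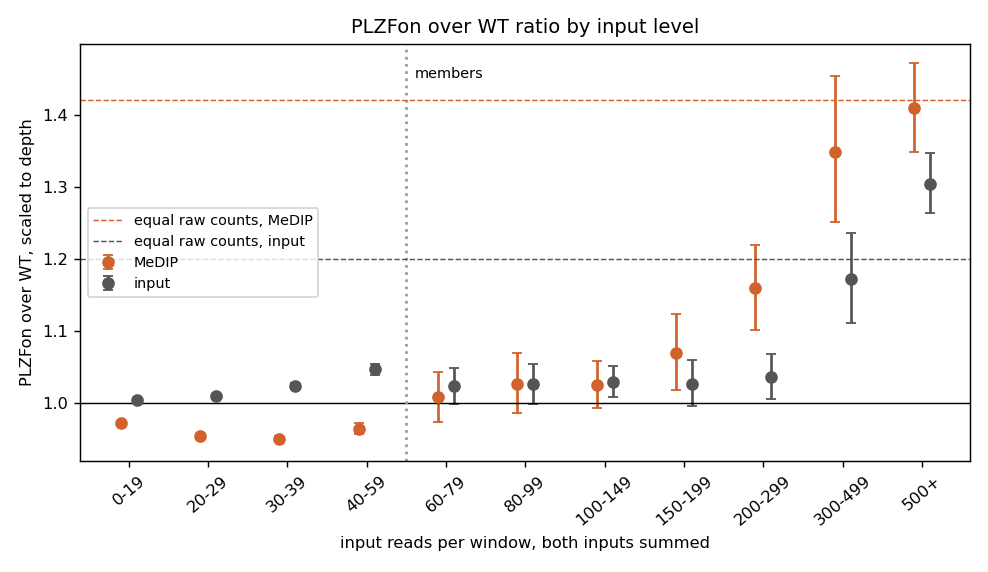
PLZFon over WT ratio after scaling to depth, for MeDIP (orange) and input (grey), by the summed input reads of the window, with 95% counting intervals. Dashed lines mark the ratio that equal raw counts give, 1.42 for MeDIP and 1.20 for input, and the dotted line marks the threshold of 60. MeDIP rises from 1.01 in the lowest class of members to 1.41 in the highest.

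**Figure D4:**
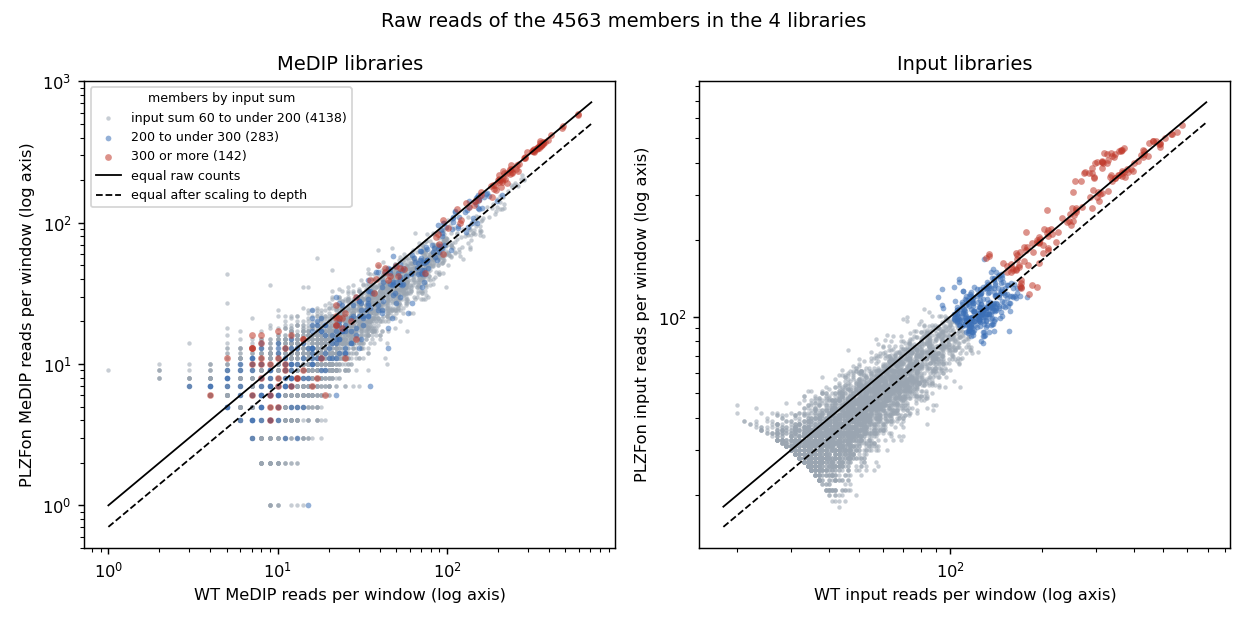
Raw reads of each member in WT (horizontal) and PLZFon (vertical), for MeDIP (left) and input (right), both axes logarithmic and each point 1 window of 100 bp, coloured by input sum, with counts of 0 not drawn. The solid line marks equal raw counts and the dashed line equal counts after scaling to depth. Members with 300 or more input reads and many MeDIP reads lie along the solid line, and the points above it at high input on the right include the Gm10222 and Gm10925 domain.

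The members with the most input were few and compact. A block of chromosome 2 (98662001 to 98667400), 35199 bp from the nearest annotated gene Gm33780, had 35 listed windows and all were members. It held 9490 WT and 9486 PLZFon MeDIP reads, and 9556 WT and 9554 PLZFon input reads. Raw counts were thus nearly equal in both pairs, and scaling gave 1.42 (1.34 to 1.51) for MeDIP and 1.205 (1.14 to 1.28) for the inputs. MeDIP over input was 3.98 in WT and 4.70 in PLZFon, the highest of the 16 domains. The raw MeDIP sums were also close to the raw input sums, so both values lie near the ratio of input to MeDIP library totals. They are therefore not read as the strength of pull-down. Its top window (98662601 to 98662700), with the highest input of all members, had 592 WT and 589 PLZFon MeDIP reads on 577 and 562 input reads, and its neighbour (98662501 to 98662600) had 592 and 579 on 531 and 521.

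The tandem repeat at Gm40237 (chromosome 4, 118546801 to 118549000) behaved alike, with 22 listed windows that were all members. It held 5598 WT and 5557 PLZFon MeDIP reads and 7899 WT and 8012 PLZFon input reads, for ratios of 1.41 (1.31 to 1.52) in MeDIP and 1.22 (1.15 to 1.30) in input. Over the printed promoter the 4 members held 1326 WT and 1319 PLZFon MeDIP reads on 1436 and 1485 input reads, with MeDIP over input of 3.70 and 4.21. As in the block of chromosome 2, raw MeDIP sums were close to raw input sums, so these values are not read as the strength of pull-down. The windows 118547901 to 118548000, 118548001 to 118548100 and 118548201 to 118548300 had 340 and 339, 339 and 333, and 347 and 336 MeDIP reads in WT and PLZFon. Aida, which encodes an axin-binding protein (chromosome 1, 183298901 to 183299500), had 658 and 664 MeDIP reads over 3 members, a ratio of 1.44 (1.15 to 1.79), and an intergenic cluster of chromosome 3 (5860201 to 5860900) had 904 and 851, a ratio of 1.34 (1.11 to 1.62). The Gm10222 and Gm10925 clusters completed the 5 highest in mean input per window.

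Taken singly, few members differed by a wide margin. Of the 3188 members with at least 20 MeDIP reads over both libraries, 49 had a PLZFon over WT ratio of at least 2 with an interval above equality (1.54%, against 1.13 percent of the 409114 listed windows with as many reads), and 17 had a ratio of at most 1 over 2 with an interval below it (0.533% against 2.17 percent). The higher share is near that of the whole list, and the lower share is smaller. The zinc finger domain held 20 of the 49 and 2 of the 17, the Sp100 region 11 and 8, and the snoRNA array 8 and 0. Over whole clusters, counted as reads by dividing window sums by 4, 229 clusters of 3 or more members had at least 50 MeDIP reads, with a median ratio of 1.03. The interval lay above equality in 20 of them (8.73%) and below it in 4 (1.75%), where runs of the other windows gave 1.23 percent and 3.43 percent of 28055. In 8 of the 20 the input interval lay above equality as well. The zinc finger domain held 3 of the 20, out of 58 clusters, and most of the 20 were the only cluster counted in their domain. Among these were the block of chromosome 2, Gm40237, Aida and Chl1, where raw MeDIP counts were close. The 4 below were 2 of 7 in the Sprr2a domain, 1 of 58 in the zinc finger domain and the Pfdn4 cluster.

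The lowest single windows were in Zfp992 and Vmn2r-ps16 on chromosome 4 (146457401 to 146457500), with 18 WT and 3 PLZFon MeDIP reads (ratio 0.237, 0.0448 to 0.813), in A530040E14Rik on chromosome 1 (85111601 to 85111700), with 35 and 7 (0.285, 0.107 to 0.651), and on chromosome 5 (15043601 to 15043700), with 19 and 4 (0.300, 0.0742 to 0.902). Their input ratios were 1.11, 0.904 and 1.24, with intervals that include equality. The lowest clusters were at Zfp992 (146457301 to 146458800), 0.617 (0.322 to 1.13), Znf41-ps (145814901 to 145815800), 0.639 (0.373 to 1.06), and Zfp978 (147368401 to 147369000), 0.662 (0.424 to 1.01), all including equality. With window sums divided by 2 in place of 4 their intervals narrowed to 0.396 to 0.943, 0.441 to 0.913 and 0.487 to 0.892, which exclude it. The highest clusters were at Gm13238, 1.69 (1.26 to 2.27), Gm7281 on chromosome 1, 1.62 (0.921 to 2.85), and Gm13241, 1.60 (1.22 to 2.09). Their input ratios were 0.831 (0.710 to 0.970), 0.882 (0.678 to 1.14) and 0.910 (0.786 to 1.05). Division by 2 gave 1.09 to 2.39 for Gm7281.

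Members called in the authors' deposited table numbered 41 (0.899%). All had an adjusted p below 0.05 by edgeR there and were higher in PLZFon, against 0.0132 percent of listed windows called higher and 0.00124 percent lower. Those p-values compare 1 library with 1. Of these 41, 36 had an input sum of 300 or more. The authors' deposited table placed 18 in the block of chromosome 2, 14 in Gm40237, 2 in Aida and 2 at Chl1 (chromosome 6, 103649101 to 103649300). At these 4 sites the raw MeDIP counts of called windows were close, for instance 318 to 324 in WT and 319 to 321 in PLZFon at Aida, and the log2 fold changes in the authors' deposited table lay between 0.52 and 0.67. The other 5 calls of the authors' deposited table were 3 in Gm13241 and 2 in the cluster at Gm13238 (1 over the gene and 1 just before its start at 145837219), with input sums of 76 to 101 and log2 fold changes from 1.69 to 3.63.

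Those 5 windows belong to CpG-dense stretches at pseudogenes within the zinc finger domain. In the clusters at Gm13238 (145833901 to 145839300), Gm13241 (146472001 to 146477400, within Vmn2r-ps16) and Gm13146 (147184501 to 147189400), windows with a CpG factor of 5 or more held 151 WT and 254 PLZFon, 151 and 300, and 107 and 163 MeDIP reads. PLZFon was thus higher in raw reads in all 3 although its library was smaller, and the ratios were 2.40 (1.58 to 3.68), 2.83 (1.89 to 4.30) and 2.17 (1.30 to 3.68). The input ratios there were 0.877, 1.06 and 1.05, all with intervals that include equality. MeDIP over input was 1.23, 1.37 and 1.43 in WT and 3.35, 3.65 and 2.96 in PLZFon. In the same clusters, windows with a factor under 5 had MeDIP ratios of 1.16 (0.748 to 1.79), 0.922 (0.617 to 1.36) and 1.09 (0.692 to 1.71). Their input ratios were lower than 1, at 0.810 (0.669 to 0.978), 0.859 (0.724 to 1.02) and 0.843 (0.705 to 1.01). These 3 pseudogene clusters, called the 3 copies below, were singled out after their values were seen. Their sequences were not compared. If they are near-identical, a read could be placed at any of them, so the 3 ratios may not be separate observations.

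Window by window, Gm13241 and the cluster at Gm13238 had profiles of a like shape. In the latter 3 of the 9 windows with a factor of 5 or more overlap the gene, and the others lie before its start. In Gm13241, going along the chromosome through 5 windows with CpG factors of 13, 13, 15, 8 and 15, WT MeDIP had 6, 5, 5, 17 and 39 reads and PLZFon 17, 27, 43, 56 and 64. At Gm13238 the windows with factors of 11, 14, 16, 10 and 14 had 5, 7, 9, 21 and 39 in WT and 18, 21, 36, 46 and 49 in PLZFon. WT was low in the first 3 windows of each series and reached 39 in the last, which were CpG-dense alike. PLZFon was higher than WT throughout both series. The windows of a series are adjacent and share reads, so they are not separate observations, and they were picked after their values were seen. In the window after each series, with factors of 8 and 7, raw reads were nearly level. WT had 49 and PLZFon 51 at Gm13241, and both had 43 at Gm13238. The window at 146475201 to 146475300 had the highest ratio of all members with at least 20 reads, 12.2 (4.86 to 39.6), followed by 146475101 to 146475200 at 7.69 (2.92 to 25.6) and 145837101 to 145837200 at 5.70 (2.69 to 13.4). In these 3 windows the authors' deposited relative methylation score was 0.25, 0.27 and 0.31 in WT and 0.52, 0.48 and 0.49 in PLZFon. A further cluster with CpG-dense windows, at Gm13135 (147275001 to 147279100), was not higher in PLZFon over these windows together. Its windows with a factor of 5 or more held 288 WT and 174 PLZFon reads, a ratio of 0.860 (0.576 to 1.27). The windows with factors of 19 and 15 had 3 and 4 reads in WT and 8 and 6 in PLZFon, higher in PLZFon but too few to compare.

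**Figure D5:**
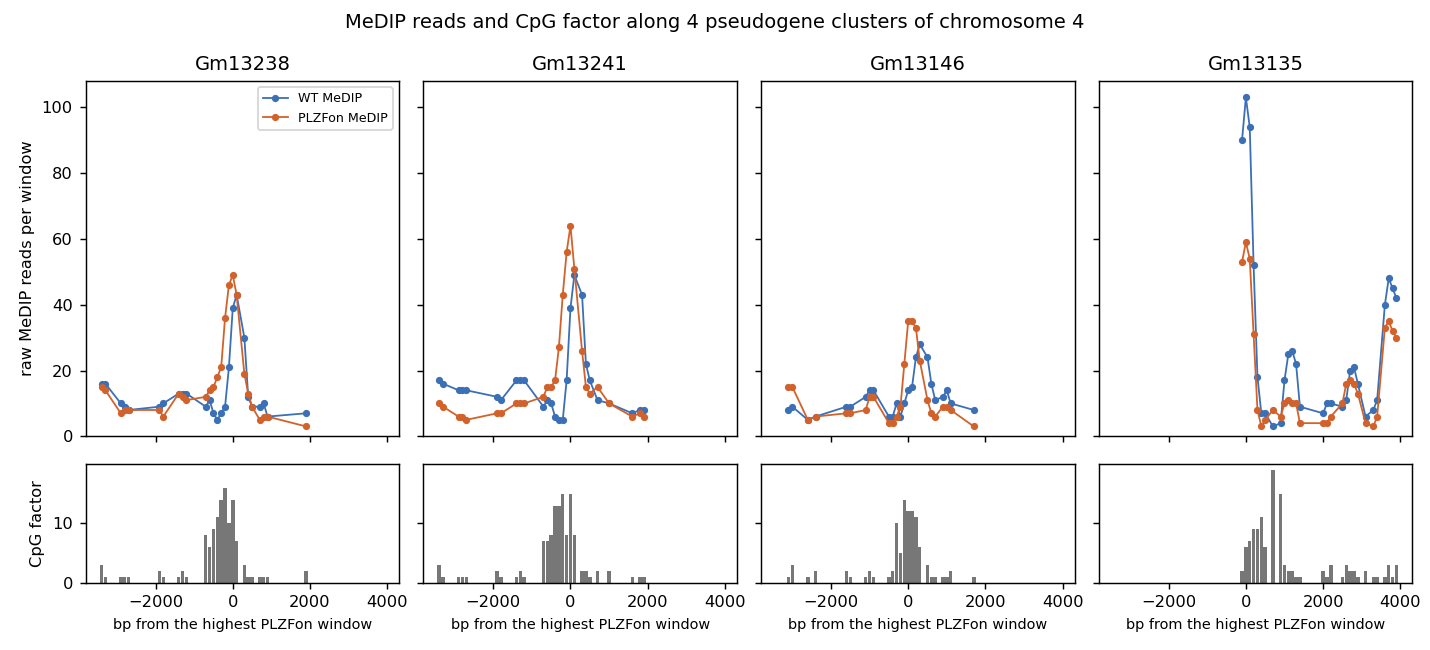
Raw MeDIP reads per window in WT (blue) and PLZFon (orange), above, and CpG factor, below, along the clusters at Gm13238, Gm13241, Gm13146 and Gm13135, by distance in bp from the window with the most PLZFon reads. In the first 3 the PLZFon reads rise within the CpG-dense stretch, to 49, 64 and 35, ahead of the WT reads, and in Gm13135 both libraries are low over the densest windows.

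These copies weighed on the CpG-dense members as a group. The 36 members with a CpG factor of 10 or more had a MeDIP ratio of 1.66 (1.42 to 1.95), against 0.954 (0.928 to 0.980) in other windows of that class, and without the 3 copies the remaining 22 had 1.35 (1.12 to 1.63), with an input ratio of 1.15 (1.03 to 1.29). The 97 members with a factor of 7 or more had 1.32 (1.22 to 1.43), and 75 of them outside the copies had 1.23 (1.13 to 1.33), with an input ratio of 1.16 (1.08 to 1.23) and a mean input sum of 202.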

How the data were processed

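Thymic NKT cells were profiled by MeDIP-seq with matched inputs, 1 library per group. Per the labels' protocols, DNA was freed with proteinase K and sheared in a Bioruptor before the pull-down. The submitters' processing notes name BWA, edgeR and mm10, without versions. Reads were counted from sorted, unique alignments per the file headers. What unique means for reads that fit several copies is not given in the sources used here, and its effect on these windows was not tested. The column headers spell the genotype PLZon.

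The authors deposited raw read counts and RPKM per window of 100 bp. The authors also deposited a relative methylation score, the CpG factor (a score), and an edgeR log2 fold change with its p-value and adjusted p-value for the MeDIP libraries. The deposited list holds windows with at least 10 MeDIP reads and ends on chromosome 7. It had 0 columns of other samples.

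Library totals were recovered from the deposited counts and RPKM, giving 15143451 and 10635946 MeDIP reads in WT and PLZFon and 60689327 and 50365402 input reads. Ratios are of reads per library total. A read is counted in about 4 windows, so window sums were divided by 4 for the intervals, and single windows were not. No test was run, since each group had 1 library. The members and lists were chosen with earlier results of these data known. Named clusters were the 10 with the most members, the 5 with the highest mean input, and the 3 highest and 3 lowest MeDIP ratios among those with at least 5 members and 50 MeDIP reads. Named windows were the 5 of highest input and the 3 highest and 3 lowest MeDIP ratios with at least 20 reads. Other genes and clusters were picked after their values were seen. Alternatives changed the input threshold, the input that chose members, the scaling, the read minimum, the fold, the CpG factor, the gap and the divisor of window sums. Gene positions and promoters came from RefSeq, GRCm38.p6. The counting rule was tested on simulated data. Python 3.11.15, pandas 2.3.3, numpy 2.4.6, scipy 1.17.1, matplotlib 3.10.9, R 4.3.3 and edgeR 4.0.16 (TMM factors only) were used.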

Additional observations from a re-analysis of the deposited data

How the results depend on the processing

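The PLZFon over WT MeDIP ratio over the members, 1.10 as reported, was on the other side of equality with an input threshold of 40 (0.989), where 29696 windows enter. It was 1.15 at a threshold of 100, 1.07 without the block of chromosome 2, 1.14 with TMM factors, 1.14 with totals over the listed windows, and 1.03 as the median of cluster ratios. Without windows of 200 or more input reads it was 1.03, and without those of 300 or more 1.04, both chosen after the data were seen. The input ratio, 1.06, was 1.08 at a threshold of 100, 1.02 and 1.16 with members chosen on the WT or the PLZFon input alone, 1.05 with listed totals, 1.04 as the cluster median, and 1.03 and 1.03 without windows of 200 or 300 or more input reads. The windows past the 2-fold rule, 49 higher and 17 lower, became 77 higher with TMM factors and 77 with listed totals, 14 and 8 with at least 40 reads, and 94 and 42 with a ratio of 1.5. The 41 members called in the authors' deposited table were 23 without the block of chromosome 2 and 5 without windows of 300 or more input reads. MeDIP over input, 1.95 in WT and 2.01 in PLZFon, was 3.48 and 3.27 at a threshold of 40, 1.85 and 1.96 at 100, 1.996 and 2.11 by the WT input alone, 2.23 and 2.11 by the PLZFon input alone, 1.88 and 1.91 without the block, 1.60 and 1.65 with a CpG factor under 3, and 2.92 and 3.03 with 5 or more. The 453 clusters became 179 with gaps of up to 10000 bp. The cause of these shifts was not tested.

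Of the values recomputed under alternatives that could move them, 19 were labelled the same, 37 moved and 1 reversed. A ratio was labelled the same if it stayed inside the reported counting interval, and a count or share if it stayed within 1.5 times. The tally thus mixes a narrow rule for ratios with a wide one for counts. Dividing window sums by 2 in place of 4 leaves each ratio as it is and narrows its interval. Among the 21 named clusters it raised the MeDIP intervals that exclude equality from 5 to 11, so the calls of single clusters depend on that divisor. The number of large domains stayed within 1.5 times of 16 with gaps of 100000 or 1000000 bp. No paired analysis was possible because each group has 1 library. Leaving out a library would leave a group empty. At the depth of these libraries 229 of the 453 clusters had at least 50 MeDIP reads, and the MeDIP ratios of the others were not read.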
